A study of Mus musculus with 29 samples.

Results

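The insulin and IGF1 signalling genes described here were Insr, Igf1r, Igf1, Irs1, Irs2, Pik3r1, Akt1, Akt2 and Slc2a4, chosen by symbol. All 9 were among the 11959 genes of the table and were followed through 29 samples in 8 groups. RNA-seq was performed on 3T3-L1 cells, an established line of mouse fibroblasts that can be turned into white adipocytes. The cells received 10 µM C70 (KDM5-C70, an inhibitor of the KDM5 histone demethylases) or vehicle (DMSO) from day -2 to day 0, and were collected at days 0, 1, 2 and 7. On days 0, 1 and 2 vehicle was represented by 3 replicates and C70 by 4, and on day 7 both by 4. From day 0 to day 2 all cells were in differentiation medium containing dexamethasone, insulin, isobutylmethylxanthine and a PPARγ agonist, followed by maintenance medium with insulin and dexamethasone. The ligand insulin was therefore supplied from outside in every group after day 0, and C70 was present before differentiation only. The model is 1 cell line in culture. The labels do not say whether replicates were separate cultures, so the p-values measure the spread between these samples, which may be technical.

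Insulin and IGF1 bind related receptor tyrosine kinases, which phosphorylate the docking proteins IRS1 and IRS2. These recruit phosphoinositide 3-kinase, whose lipid product activates the kinases AKT1 and AKT2. In adipocytes AKT2 is the form most closely tied to movement of the glucose transporter GLUT4 to the cell surface, and insulin also drives lipid storage and the conversion of preadipocytes to fat cells. Preadipocytes carry mainly IGF1 receptors, whereas mature adipocytes are known for their many insulin receptors.

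In GRCm38 coordinates, the ligand gene Igf1 (ENSMUSG00000020053) lies on the plus strand of chromosome 10 from 87858265 to 87937042. Of the receptors, Igf1r (ENSMUSG00000005533) spans 67952827 to 68233668 on the plus strand of chromosome 7, and Insr (ENSMUSG00000005534) 3122061 to 3279617 on the minus strand of chromosome 8. The docking protein genes are Irs1 (ENSMUSG00000055980), on the minus strand of chromosome 1 from 82233101 to 82291416, and Irs2 (ENSMUSG00000038894), on the minus strand of chromosome 8 from 10984681 to 11008458. Pik3r1 (ENSMUSG00000041417), which encodes the p85α regulatory subunit of phosphoinositide 3-kinase, runs from 101680563 to 101768217 on the minus strand of chromosome 13. Akt1 (ENSMUSG00000001729) lies on the minus strand of chromosome 12 from 112653821 to 112674884, and Akt2 (ENSMUSG00000004056) on the plus strand of chromosome 7 from 27591552 to 27640826. Slc2a4 (ENSMUSG00000018566), the GLUT4 gene, lies on the minus strand of chromosome 11 from 69942539 to 69948188. The counts cover whole genes, so isoforms and exons were not separated. Irs1 overlaps Gm9747 and Irs2 overlaps 9530052E02Rik in their exons on the other strand, and whether the authors counted by strand is not given in the sources used here. Akt2 has a named pseudogene, Akt2-ps, with which it could share reads, so its counts carry that uncertainty.

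C70 inhibits enzymes that remove methyl groups from histone H3 at promoters, so the promoters of Irs1, the member called at day 7, and of Akt2, a member called at days 1 and 2, are shown. Of the 9 members, 7 had entries in the RefSeq promoter table for GRCm38.p6, and Insr and Slc2a4 were the others. Each window is the 250 bases before the annotated start, 5′ to 3′, with the GC box, GGGCGG or its reverse complement CCGCCC, in capitals. Irs1 is from chr1:82291440-82291689, minus strand, and Akt2 from chr7:27591302-27591551, plus strand, the most upstream of 4 Akt2 starts.
Irs1: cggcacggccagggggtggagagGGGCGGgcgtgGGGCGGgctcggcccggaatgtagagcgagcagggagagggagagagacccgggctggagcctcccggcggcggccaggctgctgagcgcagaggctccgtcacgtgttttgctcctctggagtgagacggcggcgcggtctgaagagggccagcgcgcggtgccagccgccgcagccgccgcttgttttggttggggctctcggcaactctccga
Akt2: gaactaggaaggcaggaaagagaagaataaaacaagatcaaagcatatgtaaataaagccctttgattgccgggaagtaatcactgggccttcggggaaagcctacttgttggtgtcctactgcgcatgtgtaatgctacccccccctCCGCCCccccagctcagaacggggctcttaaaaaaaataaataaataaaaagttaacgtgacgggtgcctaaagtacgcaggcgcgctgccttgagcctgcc
The Irs1 window held 28 CpG dinucleotides, 2 GC boxes and 72.4% G and C. The Akt2 window held 10 CpG dinucleotides, 1 GC box and 48.8% G and C. Over 32536 RefSeq promoters of the same length, the median was 6 CpG dinucleotides, and 33% held a GC box on either strand. The FoxO core TGTTTAC (reverse complement GTAAACA), held by 3.17% of promoters, and TATAAA (reverse complement TTTATA), held by 12.3%, were in neither window. A match is a description of letters and no binding was measured.

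Samples held between 16320275 and 24037170 counts in total. The common biological coefficient of variation was 0.0594. Levels are given as CPM, counts scaled to a common library total, with the TMM (trimmed mean of M values) correction, and compared between genes only as CPM per kilobase of exon. Summed CPM of 9 adipocyte markers rose from 1288-1410 in day 0 vehicle samples to 25936-31465 at day 7, and that of 7 preadipocyte or fibroblast markers went from 20406-21081 to 2219-2906. At day 2 the adipocyte sum was 22591-23493 in vehicle and 12750-14211 in C70 samples, with 8 of 9 markers called lower after C70. At day 1 it was 5093-5362 in vehicle and 3182-3304 in C70, again with 8 of 9 called lower, and at day 7 the ranges overlapped with 1 called higher. At day 0 the adipocyte sum was 1470-1524 after C70, above the vehicle range, with 1 marker called higher and 2 lower. Of the 7 preadipocyte or fibroblast markers, 2 were called higher after C70 at day 0, and 4 higher and 1 lower at day 1. The preadipocyte or fibroblast sum overlapped between the groups on those days and was higher after C70 later. It was 5877-6250 against 3442-3515 at day 2, and 4746-5478 against 2219-2906 at day 7, when 7 of 7 markers were called. Cd68 was the 1 of 5 macrophage markers analysed here, at 1.13-1.67 CPM in vehicle and 18.7-19.8 in C70 samples at day 0. It was 1.74-2.01 and 13.6-15.1 at day 1 and 1.33-1.75 and 6.35-6.94 at day 2, and its part in the results of those days was not tested. Des, the 1 of 4 muscle markers analysed, went from 4.18-5.61 CPM in day 0 vehicle samples to 40.6-50.9 at day 7. After C70 Des was at 8.69-10.0 CPM at day 0, 5.45-7.24 against 1.83-2.58 at day 1, and 4.76-5.39 against 3.48-3.64 at day 2. None of the 4 endothelial markers was analysed. Vehicle replicate 1 of day 7 had the lowest CPM of its group for Insr, Igf1r, Igf1, Irs1, Irs2 and Pik3r1, and day 7 results are given without it where it matters.

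Differentiation of vehicle cells was examined first, to ask how the pathway was set up when no inhibitor had been given. Genes were called when the adjusted p in edgeR's quasi-likelihood test (Benjamini-Hochberg) was under 0.05 and the fold change in either direction more than 25% above 1, or 0.32 on the log2 scale. From day 0 to day 7, all 9 members were called, against 73.5% of all genes (36.7% higher and 36.7% lower). Insr, Irs2, Pik3r1, Akt2 and Slc2a4 rose, and Igf1r, Igf1, Irs1 and Akt1 fell. In these bulk samples, more cells expressing a gene and more RNA per cell cannot be told apart, and the marker sums above moved over the same days. Their part in the results was not tested.

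**Figure D1:**
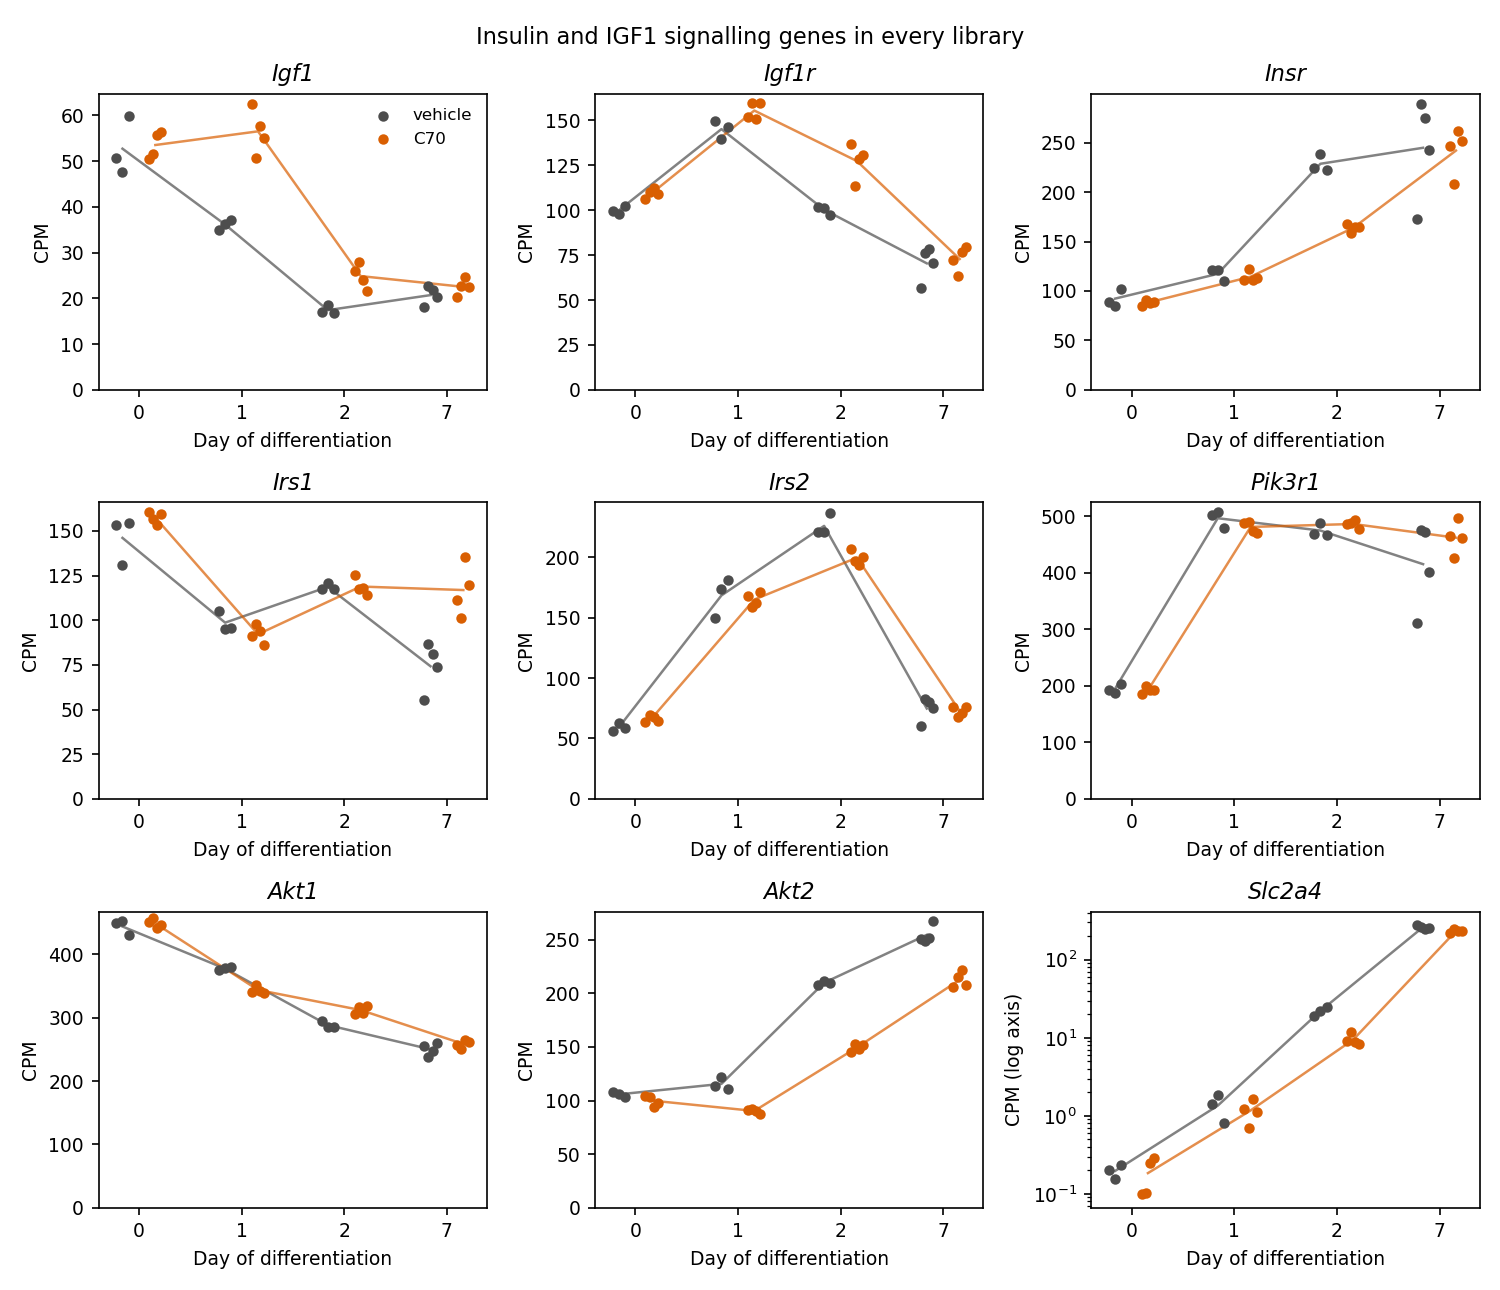
CPM of the 9 genes in each of the 29 samples at days 0, 1, 2 and 7 (days evenly spaced, with a log axis for Slc2a4 and axes from 0 for the others), with vehicle and C70 replicates as separate points and lines through the group means. Slc2a4 goes from a vehicle mean of 0.196 CPM at day 0 to 262 CPM at day 7, while Igf1 and Akt1 end below their day 0 levels.

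The ligand gene Igf1 was at 50.6, 47.6 and 59.8 CPM in the day 0 vehicle samples, 35.0, 36.2 and 37.1 at day 1, and 17, 18.5 and 16.8 at day 2. The day 7 samples had 18.2, 22.7, 21.8 and 20.2 CPM, of which replicate 1, at 18.2, overlapped day 2, and all lay under every day 0 and day 1 value. Igf1 fell by 0.55 on the log2 scale from day 0 to day 1 (adjusted p = 1.8e-06 in edgeR) and by 1.05 from day 1 to day 2 (adjusted p = 5.05e-11). From day 2 to day 7 it was 0.25 higher (adjusted p = 0.02), under the fold threshold, and 0.32 and called (adjusted p = 0.003) without that replicate.

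The receptors took different courses. Igf1r, for IGF1, was at 99.9 ± 2.19, 145 ± 5.17 and 100.3 ± 2.42 CPM (SD, n = 3) on days 0, 1 and 2, and at 70.4 ± 9.82 (n = 4) by day 7. It rose at day 1 (log2 fold change 0.54 ± 0.078 SE, adjusted p = 4.29e-07 in edgeR) and fell by 0.53 from day 1 to day 2 (adjusted p = 7.25e-07) and by 0.51 from day 2 to day 7 (adjusted p = 5.3e-07). Insr, for insulin, had means of 92.2 ± 8.88, 117 ± 6.14, 229 ± 8.8 and 245 ± 52.1 CPM on the same days. Its largest step was from day 1 to day 2, with a log2 fold change of 0.96 ± 0.11 (adjusted p = 4.32e-09 in edgeR), and day 7 did not differ from day 2 by the test (0.10 ± 0.099, adjusted p = 0.376). Without vehicle replicate 1 of day 7 that last value was 0.25 (adjusted p = 0.000704), under the fold threshold. The smaller rise from day 0 to day 1 (0.35, adjusted p = 0.00587) was 0.29 without vehicle replicate 2 of day 0, under the fold threshold.

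The docking protein genes Irs1 and Irs2 moved apart. Irs2 rose from 59.2 ± 3 CPM before differentiation to 169 ± 16.3 and then 226 ± 8.99 on days 1 and 2, and was back at 74.8 ± 9.88 by day 7. The steps were 1.51, 0.42 and -1.59 on the log2 scale (adjusted p = 3.74e-17, 1.01e-05 and 1.07e-18 in edgeR). Irs1 had means of 146 ± 13.2, 98.6 ± 5.69, 119 ± 1.89 and 74.2 ± 13.8 CPM on days 0, 1, 2 and 7. In log2 terms it fell by 0.57 between the first pair (adjusted p = 7.69e-06 in edgeR) and by 0.68 from day 2 to day 7 (adjusted p = 1.76e-07), and the step between them (0.27, adjusted p = 0.0206) was under the fold threshold. Over the whole course Irs2 was 0.34 higher (adjusted p = 0.000108), a call lost, at 0.31, 0.29 and 0.30, without vehicle replicate 1 of day 0, replicate 2 of day 7 or replicate 3 of day 7.

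Pik3r1 increased at day 1. Vehicle samples had 193, 187 and 204 CPM at day 0 and 501, 508 and 479 CPM a day later. On day 2 they had 469, 488 and 466 CPM and on day 7, 311, 474, 472 and 402 CPM, all above day 0. The log2 fold change from day 0 to day 1 was 1.35 ± 0.088 (adjusted p = 1.25e-14 in edgeR), and from day 1 to day 2 it was -0.06 ± 0.085 (adjusted p = 0.529). From day 2 to day 7 it was -0.19 (adjusted p = 0.0317), under the fold threshold. That value was -0.06 without vehicle replicate 1 of day 7, and -0.35 and called with quantile normalization.

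The genes of the AKT kinases went opposite ways. Akt1 means were 444 ± 11.5, 377 ± 2.26, 288 ± 5.36 and 250.2 ± 9.68 CPM on days 0, 1, 2 and 7, and it fell by 0.83 on the log2 scale from day 0 to day 7 (adjusted p = 1.08e-19 in edgeR). Akt2 means were 106 ± 2.32, 116 ± 5.89, 209.9 ± 1.85 and 255 ± 8.61 CPM. Its largest step was between day 1 and day 2, at 0.86 ± 0.046 (adjusted p = 2.3e-16 in edgeR), and the 3 day 2 samples were all above the 3 day 1 samples.

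Slc2a4 had the largest change. Day 0 vehicle samples had 5, 3 and 5 reads, which were 0.201, 0.156 and 0.232 CPM, and day 1 samples had 31, 39 and 17 reads. Day 2 samples were at 19.1, 21.9 and 25.1 CPM and day 7 samples at 279, 261, 249.7 and 258. As a ratio of summed reads over library size, Slc2a4 rose 6.81-fold from day 0 to day 1 (95% exact interval 3.78 to 13.3, from 13 and 87 reads), and 16.2-fold from day 1 to day 2 (13.1 to 20.4). Between day 0 and day 7 the ratio was 1318 (771 to 2476, from 13 and 19218 reads), and these intervals cover counting error only. The step from day 2 to day 7 was 3.57 ± 0.095 on the log2 scale (adjusted p = 4.28e-24 in edgeR).

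By step, 7 members were called from day 0 to day 1 (5 higher, 2 lower) against 54.1% of all genes (26.2% and 27.9%), and 7 from day 1 to day 2 (4 higher, 3 lower) against 44.3% (22.3% and 22%). From day 2 to day 7, 4 members were called (1 higher, 3 lower) against 53.3% of all genes (26.6% and 26.7%). That last share of members was 44.4%. With no fold threshold 8 of the 9 were called, against 72.6% of all genes, so the side of the background depended on the threshold.

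Per kilobase of exon, Akt1 was the most abundant member at day 0, with 108 ± 2.81 CPM per kb in vehicle cells, followed by Pik3r1 at 19.3 ± 0.835 and Irs1 at 16 ± 1.44. Akt2 followed at 14.8 ± 0.326 CPM per kb, overlapping Irs1 within the spread, and Irs2 at 9.36 ± 0.474. Insr (6.71 ± 0.646), Igf1r (5.95 ± 0.131) and Igf1 (5.32 ± 0.644) were neighbours whose SDs touched or overlapped, and Slc2a4 was last at 0.0565 ± 0.011. At day 7 the order was Slc2a4 at 75.3 ± 3.51 CPM per kb, Akt1 at 61.1 ± 2.36, Pik3r1 at 41.2 ± 7.65 and Akt2 at 35.7 ± 1.21, with the last pair overlapping. Insr was then at 17.8 ± 3.79, Irs2 at 11.8 ± 1.56, Irs1 at 8.12 ± 1.51, Igf1r at 4.19 ± 0.585 and Igf1 at 2.09 ± 0.199 CPM per kb.

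C70 was next compared with vehicle at each day, to ask whether inhibition before differentiation left the pathway altered. At day 0, when treatment ended, 0 of 9 members were called by edgeR's quasi-likelihood test, DESeq2 or limma-voom, against 8.97% of all genes by the first. Only Irs2 had an unadjusted p under 0.05 there, with a log2 fold change of 0.17 ± 0.074 (adjusted p = 0.109). Irs2 was at 63.8, 69.8, 68.1 and 64.4 CPM after C70 and at 56.6, 62.5 and 58.4 in vehicle, so the groups did not overlap. Igf1r did not overlap either, and 34% of all genes were separated in this way at day 0, 18% with C70 higher as here. For Slc2a4, 16 reads in C70 against 13 in vehicle gave a ratio of 0.96 with a wide interval (0.433 to 2.17), so a difference was not detectable at this depth.

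At day 1, 2 of 9 members were called, or 22.2%, against 21.4% of all genes. Igf1 was higher, as were 13.6% of all genes, and Akt2 lower, as were 7.8%. At day 2, 5 members were called, or 55.6%, against 30.5% of all genes. With a fold change over 1.5 the call of Slc2a4 alone was left, against 14.5% of all genes. Of the 5, Igf1 and Igf1r were higher (16.9% of all genes were) and Insr, Akt2 and Slc2a4 lower (13.6% of all genes were). At day 7, 1 member was called, or 11.1%, against 19.1% of all genes, and this was Irs1, which was higher, as were 14.3% of all genes (4.85% were lower). The median log2 fold change of the 9 on days 0, 1, 2 and 7 was 0.02, -0.05, 0.00 and 0.05, beside 0.00, -0.01, 0.00 and 0.00 over all genes. On the same days the markers given above also differed after C70, with 8 of 9 adipocyte markers lower at days 1 and 2. Of the 7 fibroblast markers, 4 were higher and 1 lower at day 1, 6 were higher at day 2 and 7 at day 7. Their part in these results was not tested.

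**Figure D2:**
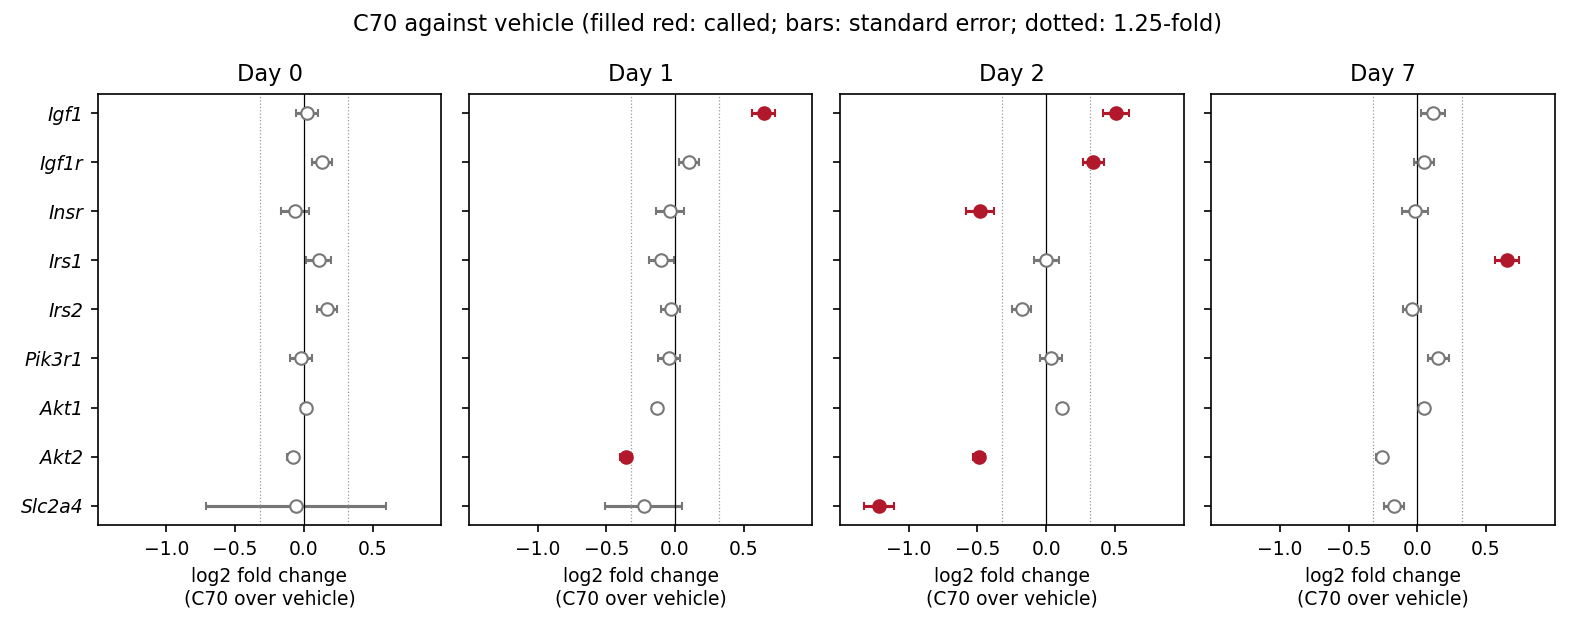
Log2 fold change of C70 against vehicle for each of the 9 genes at days 0, 1, 2 and 7, with bars for the standard error of the edgeR fit, filled points for called genes and dotted lines at the fold threshold. None is filled on day 0, 2 are on day 1, 5 on day 2 and Irs1 alone on day 7.

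Of the ligand, Igf1 was higher after C70 at days 1 and 2. At day 1, C70 samples had 62.5, 50.6, 57.7 and 55.1 CPM, close to the day 0 range, where vehicle samples had 35.0, 36.2 and 37.1. At day 2 the values were 25.9, 27.9, 24.1 and 21.6 CPM after C70 and 17, 18.5 and 16.8 in vehicle. Every C70 sample was above every vehicle sample on both days. The log2 fold change was 0.64 ± 0.082 at day 1 (1.56-fold, adjusted p = 1.87e-07 in edgeR) and 0.51 ± 0.093 at day 2 (1.42-fold, adjusted p = 3.19e-05). At day 7 the groups overlapped, with 22.5 ± 1.74 CPM (SD, n = 4) after C70 and 20.7 ± 1.97 in vehicle (0.12 ± 0.087, adjusted p = 0.299).

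The receptors were called at day 2, in opposite directions. Igf1r was at 137, 114, 129 and 131 CPM after C70 and at 102, 101 and 97.6 in vehicle. This was 1.27-fold higher (0.34 ± 0.074, adjusted p = 0.000256 in edgeR), and 0.31 without C70 replicate 1 of day 2, just under the fold threshold. At days 0 and 1 the Igf1r values after C70 were also all above vehicle, by 0.13 and 0.10 (adjusted p = 0.238 and 0.292 in edgeR). The change of the Igf1r effect from day 1 to day 2, 0.25, missed the adjusted p (0.0983). At day 7 the Igf1r groups overlapped (0.05, adjusted p = 0.628). Insr was at 168, 158, 165 and 165 CPM after C70 and at 225, 239 and 222 in vehicle, 1.40-fold lower (-0.48 ± 0.099, adjusted p = 0.000146 in edgeR). The C70 values of Insr lay between the vehicle values of day 1 and those of day 2. At day 7 Insr was at 242 ± 23.2 CPM after C70 and 245 ± 52.1 in vehicle (-0.02 ± 0.092, adjusted p = 0.901 in edgeR). Without vehicle replicate 1 of day 7, which had 172 CPM against 289, 275 and 242 in the others, this value was -0.15 (adjusted p = 0.0488), under the fold threshold. It was 0.05 (adjusted p = 0.689) without C70 replicate 2 of day 7, and at most 0.07 with 1 library left out, so the sign was not settled.

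The docking protein gene Irs1 showed no call from day 0 to day 2, and at day 2 its mean was 119 CPM in both groups. At day 7 it was at 111, 101, 136 and 119.5 CPM after C70 and at 55.1, 86.7, 81.0 and 74.1 in vehicle. All 4 C70 samples were above all 4 vehicle samples, and the difference was 1.57-fold (log2 0.65 ± 0.088, adjusted p = 5.07e-07 in edgeR). It was 0.54 without vehicle replicate 1 (adjusted p = 4.8e-08) and 0.72 without C70 replicate 2 (adjusted p = 1.56e-07). The C70 mean at day 7, 117 ± 14.6 CPM, was near the day 2 means, from which vehicle cells had gone down. Irs2 had a log2 difference of -0.18 after C70 at day 2 (adjusted p = 0.0306 in edgeR), with 199.8 ± 5.68 CPM against 226 ± 8.99, and this was under the fold threshold. At day 7 Irs2 was at 72.9 ± 4.07 CPM after C70 and 74.8 ± 9.88 in vehicle (-0.04 ± 0.068, adjusted p = 0.692).

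Pik3r1 was not called against vehicle, with adjusted p between 0.0992 and 0.909 in edgeR over the 4 days. On days 0, 1, 2 and 7 its C70 means were 192 ± 5.85, 481 ± 10.0, 486 ± 6.88 and 462 ± 28.6 CPM, beside vehicle means of 195 ± 8.42, 496 ± 14.9, 474 ± 11.7 and 415 ± 77.1. The value at day 7 was 0.15 ± 0.074 on the log2 scale. It was 0.04 without vehicle replicate 1 of that day (adjusted p = 0.486) and 0.22 without replicate 2 (adjusted p = 0.0154), which were the lowest and highest values with 1 library left out. It was also 0.22 without vehicle replicate 3 (adjusted p = 0.0186) and 0.19 without C70 replicate 2 (adjusted p = 0.0473), all under the fold threshold.

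Akt2 was called lower after C70 at days 1 and 2, and its day 7 difference passed the adjusted p alone. At day 1 C70 samples had 91.0, 92.3, 90.6 and 87.4 CPM and vehicle samples 114, 122 and 111, and at day 2 they had 146, 153, 148 and 152 against 208, 212 and 209.5. At day 7 the values were 206, 216, 222 and 207 CPM after C70 and 251, 249, 252 and 267 in vehicle. The groups did not overlap on any of these days, given without a background share, whereas at day 0 they did. At day 7, 41.1% of all genes passed the adjusted p. The log2 differences on days 1, 2 and 7 were -0.36 ± 0.043, -0.49 ± 0.042 and -0.26 ± 0.039 (adjusted p = 9.03e-08, 4.24e-11 and 3.2e-06 in edgeR). The day 7 difference, 1.2-fold, was under the fold threshold, as was the day 1 value without vehicle replicate 2 (-0.31).

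Akt1 moved less and not in one direction. In log2 units it was 0.13 lower after C70 at day 1 (adjusted p = 0.00305 in edgeR), with 344 ± 5.55 CPM against 377 ± 2.26, and 0.11 higher at day 2 (adjusted p = 0.00886), with 312 ± 5.98 against 288 ± 5.36. Neither reached the fold threshold, and at day 7 the groups overlapped (adjusted p = 0.264).

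Slc2a4 was lower after C70 at day 2, the first day on which it had over 100 reads in every sample. C70 samples had 170, 210, 147 and 160 reads, or 9.07, 11.8, 8.80 and 8.20 CPM, and vehicle samples had 425, 534 and 491 reads, or 19.1, 21.9 and 25.1 CPM. The groups did not overlap, and the difference was 2.32-fold (log2 -1.22 ± 0.11, adjusted p = 1.13e-10 in edgeR). At day 1 the ratio of C70 to vehicle was 0.852 (0.627 to 1.16, from 89 and 87 reads). At day 7, C70 samples had 219.6, 246, 235 and 231 CPM and vehicle samples 279, 261, 249.7 and 258, so the groups did not overlap. The log2 difference was -0.17 ± 0.072 (adjusted p = 0.0611 in edgeR). With 1 library left out it was between -0.19 and -0.13 (adjusted p from 0.0433 to 0.169), under the fold threshold throughout.

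The difference between days of the C70 effect was tested by interaction terms in the same fit. From day 0 to day 1, 1 member was called against 13.9% of all genes (8.68% up, 5.23% down), and this was Igf1, whose effect grew by 0.62 (adjusted p = 0.000159 in edgeR). From day 1 to day 2, 2 were called, both down, against 13.8% (7.36% up, 6.49% down). These were Insr (-0.45, adjusted p = 0.0250) and Slc2a4 (-0.99, adjusted p = 0.0201). The Insr term stayed past the fold threshold but missed the adjusted p, at -0.40, -0.41 and -0.41 (adjusted p = 0.0734, 0.0531 and 0.0664), without vehicle replicate 3 of day 1, C70 replicate 2 of day 1 or vehicle replicate 2 of day 2, each left out alone. Slc2a4, which had 14 to 39 reads per sample at day 1, had -0.73 (adjusted p = 0.0985) without vehicle replicate 3 of day 1 and -0.80 (adjusted p = 0.0901) without C70 replicate 3 of day 1. From day 2 to day 7, 4 members were called (3 higher, 1 lower) against 20.9% of all genes (11.9% and 9.04%).

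Those 4 were Insr, whose effect moved up by 0.46 (adjusted p = 0.00913 in edgeR), Slc2a4 by 1.05 (adjusted p = 3.16e-07), Irs1 by 0.65 (adjusted p = 0.000201), and Igf1, which moved down by 0.39 (-0.39, adjusted p = 0.0192). The effects on Insr, Igf1 and Slc2a4 were thus smaller at day 7 than at day 2 by a test of the difference, and that on Irs1 larger. The Igf1 term was -0.33 (adjusted p = 0.0514) without C70 replicate 2 of day 2, past the fold threshold and just short of the adjusted p. For Akt2 the effect was 0.23 less negative at day 7 than at day 2 (adjusted p = 0.00281) and 0.27 more negative at day 1 than at day 0 (-0.27, adjusted p = 0.00163). Both were under the fold threshold, as was the Igf1r term from day 2 to day 7 (-0.30, adjusted p = 0.0276). That Igf1r term passed it, at -0.39, without vehicle replicate 1 of day 7, and likewise, at -0.35 and -0.34, without C70 replicate 2 of day 2 or C70 replicate 4 of day 7. Without C70 replicate 2 of day 7 it was -0.24 and missed the adjusted p as well (adjusted p = 0.0627).

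Paired members were set against each other within each sample as ratios of CPM per kilobase, chosen with the values above known and given without a test. The Akt2 to Akt1 ratio in vehicle cells was 0.137 ± 0.00212, 0.176 ± 0.00902 and 0.418 ± 0.0106 (SD, n = 3) on days 0, 1 and 2 and 0.585 ± 0.0154 (n = 4) on day 7. After C70 it was 0.128 ± 0.00483, 0.151 ± 0.00228, 0.275 ± 0.00186 and 0.473 ± 0.0182 (n = 4 each), and the groups did not overlap on any day. The Insr to Igf1r ratio in vehicle cells was 1.13 ± 0.0832, 0.988 ± 0.0690, 2.78 ± 0.0913 and 4.21 ± 0.378 on these days. After C70 it was 0.984 ± 0.0250, 0.898 ± 0.0299, 1.58 ± 0.0887 and 4.06 ± 0.144, so that the day 2 groups were well apart and the day 7 groups overlapped. The day 0 groups of this ratio did not overlap either. The Irs2 to Irs1 groups were apart at day 2, with 2.76 ± 0.135 in vehicle and 2.43 ± 0.0721 after C70, and at day 7, with 1.47 ± 0.0914 and 0.911 ± 0.105.

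**Figure D3:**
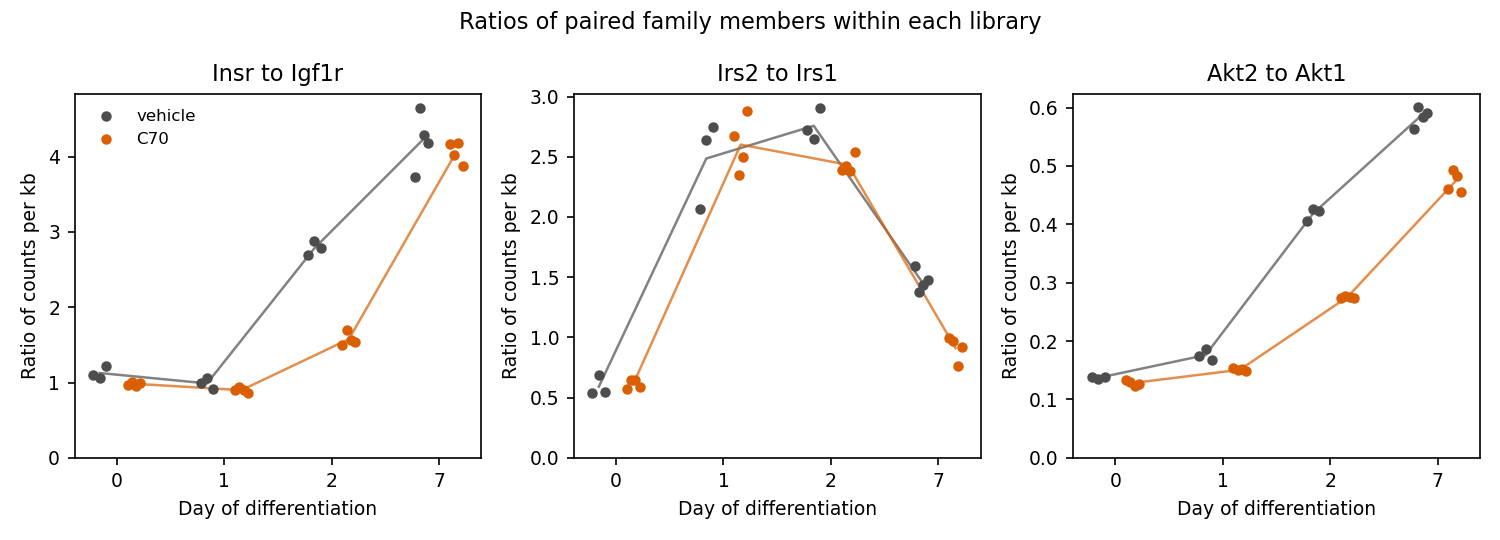
Ratios of CPM per kilobase within each sample for Akt2 to Akt1, Insr to Igf1r and Irs2 to Irs1 at days 0, 1, 2 and 7 (days evenly spaced), with vehicle and C70 replicates as points and lines through the group means. The Akt2 to Akt1 ratio is below vehicle on every day, and the Insr to Igf1r ratio at day 2 is 1.58 after C70 against 2.78 in vehicle.

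Other genes of the pathway were taken from a list of 88, of which 80 were tested. After C70, 7 of the 80 were called on day 0 (6 higher, 1 lower), 16 on day 1 (11 and 5), 27 on day 2 (13 and 14) and 14 on day 7 (12 and 2). These were 8.75%, 20%, 33.8% and 17.5% of the list, beside 8.97%, 21.4%, 30.5% and 19.1% of all genes, so the shares were near the background on each day. The median log2 fold change of the list was between 0.00 and 0.04.

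IGF binding proteins bind IGFs outside the cell, and of the 4 tested, Igfbp6 and Igfbp3 were higher after C70 on each day. On days 0, 1, 2 and 7, 50%, 75%, 50% and 75% of the 4 were called in either direction. The shares of all genes were 8.97%, 21.4%, 30.5% and 19.1%. Igfbp6 in vehicle cells was at 8.82 ± 0.118, 6.17 ± 0.685, 5.45 ± 0.487 and 3.17 ± 1.73 CPM on days 0, 1, 2 and 7. After C70 it was at 51.1 ± 3.44, 31.6 ± 2.7, 43 ± 2.1 and 8.11 ± 0.55 CPM, above every vehicle sample each day. Its log2 fold changes were 2.54, 2.36, 2.97 and 1.38 (adjusted p = 8.53e-16, 1.12e-14, 2.88e-17 and 1.37e-07 in edgeR). Igfbp3 was higher by 1.95, 2.68, 2.62 and 0.95 on the log2 scale (adjusted p = 1.19e-12, 1.27e-10, 8e-10 and 0.000251), with C70 means of 16.6, 3.21, 2.36 and 2.31 CPM. Its vehicle means were 4.29, 0.496, 0.383 and 1.18 CPM, a low base for the fold changes of days 1 and 2. Igfbp4 was lower at day 1, with 1224 ± 29.7 CPM after C70 and 1989 ± 150 in vehicle (-0.70, adjusted p = 1.06e-10). Igfbp7 was called at day 7 alone (0.74, adjusted p = 2.89e-08).

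Among 13 phosphatases and inhibitors of the pathway, those called after C70 were all higher on day 0 (2 genes) and day 1 (5 genes). On day 2, 5 were higher and 2 lower, and on day 7, 4 were higher and 1 lower. These were 15.4%, 38.5%, 53.8% and 38.5% of the 13, beside the 8.97%, 21.4%, 30.5% and 19.1% of all genes called on those days. Socs1, an inhibitor of cytokine and insulin receptor signalling, was higher at day 2 by a log2 fold change of 1.38 (adjusted p = 1.38e-05 in edgeR), with 3.42 ± 0.278 CPM against 1.32 ± 0.320, and was also higher at day 1 (0.91, adjusted p = 5.53e-05). At day 7 Socs1 was 0.97 higher (adjusted p = 0.0126), at 1.39 ± 0.158 CPM against 0.718 ± 0.385, and without vehicle replicate 2 or 3 of day 7 it was 0.74 (adjusted p = 0.0538) or 0.77 (adjusted p = 0.0561). Trib3, an AKT-binding pseudokinase, was 2.23-fold lower at day 2 (-1.16, adjusted p = 3.11e-09), and Trib1, another member of that family, was higher on days 0, 1 and 2 (0.72, 0.54 and 0.43, adjusted p = 2.16e-10, 1.37e-09 and 1.64e-07) and lower on day 7 (-0.46, adjusted p = 4.65e-08). Trib2 was higher on all 4 days (0.62, 0.41, 0.65 and 0.40), with the highest adjusted p, 6.9e-05, on day 7.

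A further 13 genes covered GLUT4 movement, glucose transport and other insulin actions, the last being Gys1 and Pde3b. Of these, 1 was lower on day 0, 3 (Sort1, Gys1 and Pde3b) on day 2 and 1 on day 7. The shares were 7.69%, 23.1% and 7.69%, beside the 8.97%, 30.5% and 19.1% of all genes called. On day 1 none of them was called by edgeR, 6 had an unadjusted p under 0.05, and 21.4% of all genes were called. Sort1 (sortilin, a sorting receptor of GLUT4 vesicles) was at 123 ± 5.89 CPM after C70 and 204 ± 4.35 in vehicle at day 2 (-0.74, adjusted p = 8.11e-11 in edgeR). Slc2a1, the gene of the basal transporter GLUT1, was at 96.7 ± 7.70 CPM and 130.3 ± 5.16 at day 7 (-0.43, adjusted p = 1.35e-07). Tbc1d1, a Rab GTPase-activating protein and AKT substrate, was lower at day 0 (-0.33, adjusted p = 1.96e-06), and -0.29 without vehicle replicate 3 of day 0. Sh2b2, an adaptor of the insulin receptor, was lower at day 1 (-0.62, adjusted p = 3.62e-07) and at day 2 (-0.77, adjusted p = 8.51e-11). Hras, a small GTPase of the branch to MAP kinase, was lower at day 1 (-0.51, adjusted p = 4.66e-05). Foxo6, of the FoxO transcription factors that AKT inactivates, was higher at day 0 (0.96, adjusted p = 6.11e-05) and day 1 (0.98, adjusted p = 3.67e-05), at 4.79 ± 0.676 and 4.07 ± 0.443 CPM, and again at day 2 (0.48, adjusted p = 0.0253). Of the 14 genes of the mTOR arm, 1 was called, lower at day 2, or 7.14% against 30.5% of all genes.

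**Figure D4:**
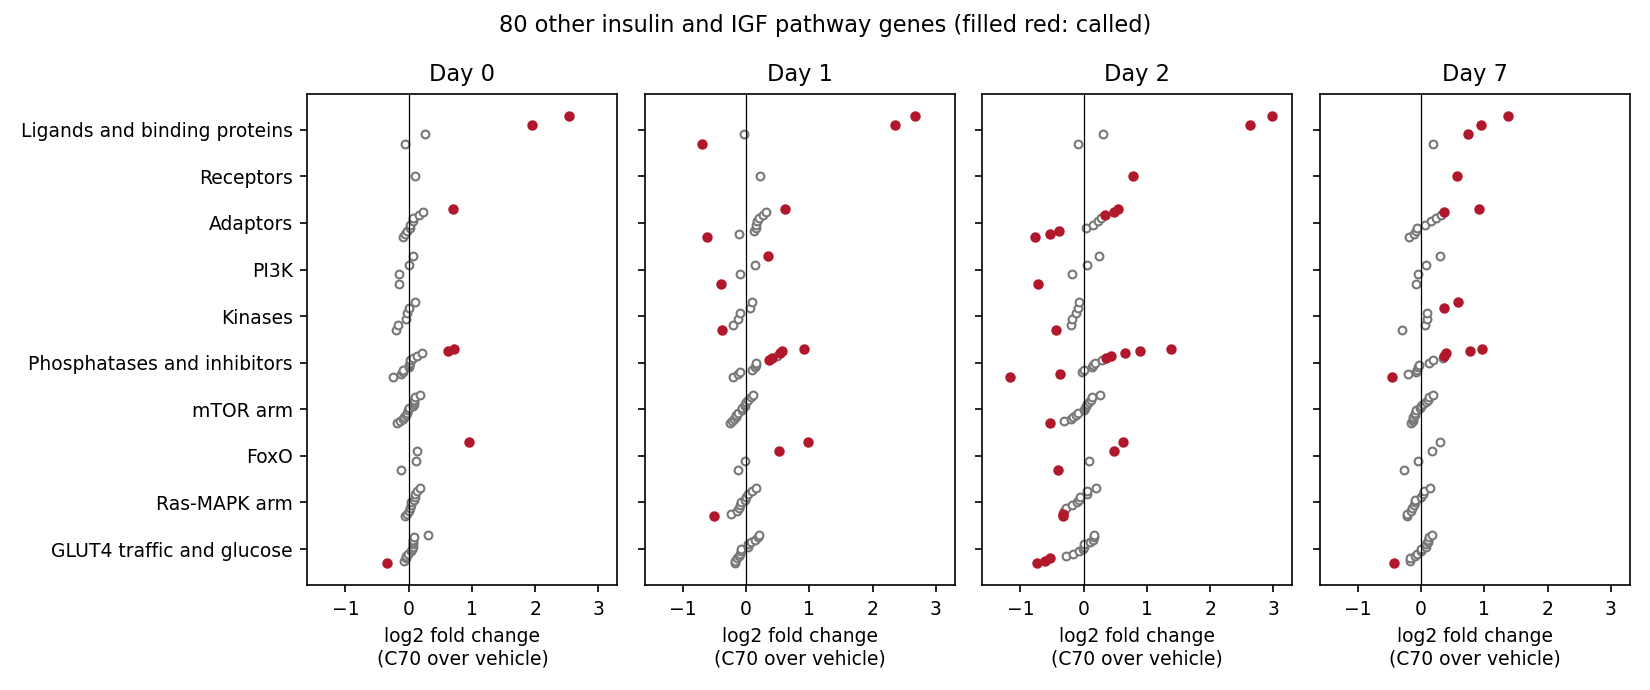
Log2 fold change of C70 against vehicle at days 0, 1, 2 and 7 for the 80 other pathway genes, grouped by arm, with called genes filled. Igfbp6 and Igfbp3 are the highest points at day 0, at 2.54 and 1.95, while every mTOR arm gene is open on that day.

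As a description over the 8 group means, with Pearson's r of log2 CPM, the genes whose course was most like a member's were Acadl (0.998) for Insr, Prdm2 (0.993) for Igf1r and Dyrk2 (0.997) for Igf1. They were Slc4a11 (0.944) for Irs1, R3hdm1 (0.994) for Irs2 and Celf2 (0.996) for Pik3r1, and Aprt (0.997) for Akt1, Lsm12 (0.996) for Akt2 and Glud1 (0.999) for Slc2a4. The next in order were Dld, Nr4a1, Pramef8, Zfp449, Gm43445, Il15ra, Asah1, Mrpl30 and Hadhb for the same members. The 8 points share libraries, days and one scaling, and the genes were picked as the highest among the 11959.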

How the data were processed

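RNA-seq libraries were strand-specific (NuGEN Universal plus mRNA-Seq). Alignment by the authors was with STAR 2.7.2a against GRCm38 and Ensembl release 97, followed by edgeR (3.26.8 in the submitters' processing notes). The counting program, its use of strand and the filter are not given in the sources used here. Although its name says normalized, the deposited table holds whole-number counts per gene. Samples held 16320275 to 24037170 counts, and every gene had a CPM above 1 in at least 20 samples. Slc2a4 passed in exactly 20. The 9 members, the wider list and the tests were chosen with earlier results of these data known.

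Counts were scaled by TMM and all 29 samples of 8 groups were fitted together with the quasi-likelihood test of edgeR 4.0.16 in R 4.3.3, two-sided, with group means and no covariate. P values were adjusted by Benjamini-Hochberg over 11959 genes within each comparison. Slc2a4 at days 0 and 1 is given as a ratio of summed reads with a 95% exact interval. Symbols, lengths and coordinates are from GENCODE M21 (GRCm38), which named 11953 genes. Named genes were the members, the 2 genes most like each, and for each day the 3 largest rises and falls of the wider list among called genes with separated groups. Igfbp7, Trib2 and the 8 genes of the closing observations were named after their values were seen. Replicates differed by more than counting noise (chi-square per degree of freedom 2.66 to 46.8 over 39 pairs).

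Alternatives were RLE scaling, quantile normalization with limma 3.58.1, DESeq2 1.42.0, limma-voom, removal of the lowest 25% of genes, other fold thresholds, single-day fits with or without the replicate block, and leaving out each library. Scripts were tested on simulated data. Python 3.11.15, pandas 2.3.3 and matplotlib 3.10.9 were used.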

Additional observations from a re-analysis of the deposited data

Results flagged for a closer look

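Within groups of 4 samples, 2 single values of members stood far from the other 3. Insr was at 122.5 CPM in C70 replicate 2 of day 1, above the other 3 samples of its group, and Akt2 at 267.3 CPM in vehicle replicate 4 of day 7. Of 45 such groups, chance alone gives such a value in about 1 in 20, or 2.25.

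The C70 effect on several members differed between successive days by an interaction term in edgeR's quasi-likelihood fit with an adjusted p under 0.05. This held for 3, 3 and 6 of the 9 members over the successive intervals, beside 19.9%, 19.8% and 30.3% of all genes. Between day 0 and day 1 it changed by 0.62 on the log2 scale for Igf1, -0.15 for Akt1 and -0.27 for Akt2. Between day 1 and day 2 it changed by -0.45 for Insr, 0.25 for Akt1 and -0.99 for Slc2a4, of which Insr and Slc2a4 missed the adjusted p when certain single libraries were left out. Between day 2 and day 7 it changed by 0.46 for Insr, -0.30 for Igf1r, -0.39 for Igf1, 0.65 for Irs1, 0.23 for Akt2 and 1.05 for Slc2a4. With certain single libraries left out, the Akt1 change from day 0 to day 1 also missed the adjusted p (up to 0.108). So did those of Igf1r (up to 0.074) and Igf1 (up to 0.0514) from day 2 to day 7.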

How the results depend on the processing

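Of 3636 values of members recomputed under the alternatives, 3580 kept their call or lack of one, 34 lost a call, 22 gained one and 0 calls reversed. Those 3580 include 36 values, called in neither setting, that changed sign. Of the 56 changes of call, 34 came from other fold thresholds and 16 from leaving out a library. Genes of the wider list were recomputed singly only on the days on which the naming rule picked them. The rule took large called changes with separated groups, which favours stable calls. Of these 790 values, 9 changed call. Values of the wider list on other days, and those of Igfbp7, Trib2 and the genes of the closing observations, were not recomputed singly. The cause of changes beyond the thresholds themselves was not tested.

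With no fold threshold, 2 members were called after C70 at day 7 (41.1% of all genes), 8 in vehicle from day 2 to day 7 (72.6%) and 3 for the C70 effect from day 0 to day 1 (19.9%). The wider list then gave 18, 36, 48 and 32 calls at days 0, 1, 2 and 7 (19.8%, 40.7%, 50.7% and 41.1% of all genes). With a fold change over 1.5, members gave 1 call after C70 at day 1 (9.12% of all genes), 1 at day 2 (14.5%), 3 in vehicle from day 0 to day 1 (34%), 4 from day 1 to day 2 (24.8%), and for the C70 effect 1 from day 1 to day 2 (5.33%) and 2 from day 2 to day 7 (9.48%). The wider list gave 7, 12 and 7 calls at days 1, 2 and 7 (9.12%, 14.5% and 8.8% of all genes). Quantile normalization left 1 member called for the C70 effect from day 1 to day 2, where Slc2a4 was at -0.70 (adjusted p = 0.214). It also called Pik3r1 (-0.35) and Akt1 (-0.34) lower in vehicle from day 2 to day 7, and not Irs2 from day 0 to day 7 (0.26). Removal of the lowest genes lost the same Irs2 call (0.29) and that of Insr from day 0 to day 1 (0.32). Leaving out single libraries gave 1 to 2 calls of members after C70 at day 1 and 0 to 2 for the C70 effect from day 1 to day 2. It added Igf1 (0.32) in vehicle from day 2 to day 7 without vehicle replicate 1 of day 7.

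With the replicate block in a fit per day, 0, 2, 5 and 1 members were called after C70 at days 0, 1, 2 and 7, so no call of a member changed, and 7, 15, 26 and 13 of the wider list. Socs1 at day 7 lost its call with the replicate block (0.96, adjusted p = 0.0839) and in the fit per day without it (0.95, adjusted p = 0.0558). The numbers did not pair the samples: over 13 same-numbered pairs the correlation of deviations ranged from -0.205 to 0.214, and 3 samples correlated best with their own number. Depth limits Slc2a4 at days 0 and 1, and 3 or 4 samples a group limit small differences throughout.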

Other observations

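Of the wider list in vehicle cells from day 0 to day 7, 61 of 80 genes were called (28 higher, 33 lower), or 76.2%, against 73.5% of all genes. The 13 genes of GLUT4 movement, glucose transport and other insulin actions (Gys1 and Pde3b) had 8 higher and 3 lower. The 4 FoxO genes had 3 higher and 1 lower, and the 13 phosphatases and inhibitors 2 higher and 8 lower. Pde3b, the phosphodiesterase through which insulin restrains lipolysis, was 4.12 higher on the log2 scale (adjusted p = 1.85e-27 in edgeR), Gys1, muscle-type glycogen synthase, 2.40 higher (adjusted p = 8.45e-26) and Tbc1d4, the AKT substrate AS160, 2.95 higher (adjusted p = 4.74e-23). Tbc1d1, a relative of Tbc1d4, was at -1.65 (adjusted p = 4.58e-24). Foxo1 was 2.89 higher (adjusted p = 1.03e-26) and Foxo3 at -0.39 (adjusted p = 1.3e-06). Grb14, an adaptor that inhibits the insulin receptor, was at -3.69 (adjusted p = 1.47e-23) and Socs3 at -3.08 (adjusted p = 3.22e-24). These genes were named after their values were seen. After C70 at day 2, Pde3b (-0.61, adjusted p = 1.48e-08), Gys1 (-0.53, adjusted p = 1.66e-09) and Foxo1 (-0.41, adjusted p = 6.24e-07) were lower. Socs3 (0.89, adjusted p = 3.48e-10) and Foxo3 (0.62, adjusted p = 1.58e-09) were higher on that day. Tbc1d4 (-0.06, adjusted p = 0.505), Grb14 (0.22, adjusted p = 0.226) and Tbc1d1 (-0.01, adjusted p = 0.868) passed no test there. At day 7, Grb14 (0.92, adjusted p = 7.06e-06) and Socs3 (0.77, adjusted p = 3.64e-07) were higher after C70. Grb14 was also higher at day 0 (0.70, adjusted p = 7.19e-08) and day 1 (0.61, adjusted p = 0.000832). Socs3 (0.56, adjusted p = 1.22e-06) and Foxo3 (0.52, adjusted p = 7.93e-08) were likewise higher at day 1.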
